A study of Rattus norvegicus with 56 samples.

Results

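Liver RNA of adult male rats that had been growth restricted before birth and then raised on a high-fat, high-fructose diet was compared between the dark phase and the light phase of the day. The comparison rests on 7 of the 56 libraries of the study, chosen by their labels for sex, diet history and time: 4 taken at zeitgeber time 16 (ZT16, 16 h after lights on) and 3 taken at ZT4, in a cycle of 12 h light and 12 h dark. The animals, called IUGR-HFhf, were offspring of Sprague-Dawley dams that received 50% of the calories between gestation day 10 and delivery (IUGR, intrauterine growth restriction), after which the mothers, and then the offspring to the end, received the HFhf diet. Livers were collected from the offspring at day 180. Other groups of the study served to ask whether a change was particular to these animals. They were CON males (regular chow throughout, 3 libraries at each time), HFhf males (dams put on a Western diet with 25% fructose in the water at gestation day 11, never restricted, 3 libraries at ZT4 and 4 at ZT16) and IUGR-HFhf females (4 at each time). The restriction was applied to the dam and the labels name no litters, so pups of 1 litter cannot be recognised. The p-values measure the spread between libraries, not litters, estimated over all 56 libraries in 16 groups. These include CON and HFhf females and the IUGR-RC groups of both sexes (restricted dams, chow after birth), which are not compared here. The labels give the tissue as mouse liver and the organism as rat.

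The 7 libraries held 7.25 to 8.46 M counted reads (M, 1000000 reads) at ZT4 and 6.73 to 7.60 M at ZT16, against 5.55 to 19.1 M over all 56. The albumin transcript Alb lay between 105000 and 153000 CPM (counts per 1000000 counts of scaled library size) and the Y-linked transcript Eif2s3y between 23.1 and 38.6 CPM, and the muscle actin Acta1 had no read in any of the 7. No pair of libraries of the same time matched within counting error, with a chi-square per degree of freedom of 15.9 to 26.2 at ZT4 and 8.87 to 14.5 at ZT16. The axis of largest variance among the 7 libraries held 40.5% of it and placed the 3 ZT4 libraries at -30.2 to -22.6 and the 4 ZT16 libraries at 15.4 to 23.8.

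Most liver cells carry a molecular clock. The activators BMAL1 (gene Arntl) and CLOCK or NPAS2 switch on the genes of their own repressors, the PER and CRY proteins, and of the nuclear receptors REV-ERB alpha and beta (Nr1d1, Nr1d2), which in turn repress Arntl and Npas2. Clock outputs, feeding, body temperature and hormones together time much of the liver's bile acid, lipid, glucose and drug metabolism, and in the nocturnal rat the dark phase is the time of activity and feeding.

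In the IUGR-HFhf males 638 genes rose and 556 fell from ZT4 to ZT16, which is 5.78% and 5.03% of the 11047 genes tested (edgeR's quasi-likelihood test with Benjamini-Hochberg adjustment, adjusted p under 0.05, used throughout). Most changes were small: the median size of a called change was 1.52-fold upward and 1.56-fold downward, and 89 rises and 113 falls were at least 2-fold. The median log2 fold change (ZT16 over ZT4) of all genes tested was -0.0068. With 1 library left out the counts were lower throughout, at 235 to 502 higher and 288 to 440 lower. The lowest pair, 235 and 288, was obtained without ZT4 replicate 3. The number higher was 404 without ZT4 replicate 1, 371 without ZT4 replicate 2 and 415 without ZT16 replicate 1, and the number lower was 338 without ZT4 replicate 2 and 333 without ZT16 replicate 1. In whole tissue, fewer cells of a type and less RNA per cell cannot be told apart.

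The 10 largest rises and 10 largest falls were chosen among called genes whose times did not overlap. Their separation was therefore fixed by the choice. Of the called genes 614 of 638 higher and 509 of 556 lower did not overlap, beside 14% and 12.6% of all genes tested. The largest fitted rise was in Vdr, which encodes the vitamin D receptor. It lay at 0.118, 0.129 and 0.223 CPM in the ZT4 libraries and at 4.61, 1.36, 3.59 and 2.31 CPM at ZT16 (log2 fold change 4.13, SE 0.798, adjusted p = 0.000783). The ZT4 values stand for 1 to 2 reads a library, so the size of this change is poorly determined. Noct, which encodes the clock-timed protein nocturnin, was 0.944, 6.59 and 0.891 CPM at ZT4 and 31.7, 24.2, 35.4 and 22 CPM at ZT16 (log2 fold change 3.38, SE 0.758, adjusted p = 0.00342). ZT4 replicate 2 was well above the other libraries of its time. Wee1, a kinase gene that delays entry into mitosis and is a known clock output, stood at 2.01, 1.94 and 1.89 CPM against 17, 10.4, 10.9 and 13.3 CPM (log2 fold change 2.72, adjusted p = 2.58e-05). Its ZT4 values were almost equal to each other. Fras1, a gene of the extracellular matrix, was 4.79 to 9.20 CPM at ZT4 and 65.7, 75.8, 21.9 and 100 CPM at ZT16 (3.22, adjusted p = 0.000205), with ZT16 replicate 3 well below the other 3. The remaining large rises were Tmem178b, which encodes a transmembrane protein (4.04, with 0 to 3 reads a library at ZT4), Nrg4, a growth factor of the neuregulin family (3.04), Sult2a6, a sulfotransferase (2.75), Nat8, an acetyltransferase (2.52), Cyp1a1, a target of the aryl hydrocarbon receptor (2.48), and Ptgis, prostacyclin synthase (2.46).

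The largest falls were in a pair of clock genes described below, Nr1d1 and Npas2. Next came Gadd45g, a stress-inducible growth arrest gene, at 13.9, 21.2 and 91.2 CPM at ZT4 and 2.24, 3.22, 5.20 and 4.91 CPM at ZT16 (log2 fold change -3.44, SE 0.699, adjusted p = 0.00145). ZT4 replicate 3 was far above the other 2 libraries of its time. Cyp8b1 encodes the sterol hydroxylase that directs bile acid synthesis toward cholic acid. Its level was 332, 440 and 815 CPM at ZT4 and 49.7, 121, 85.8 and 58.7 CPM at ZT16 (log2 fold change -2.75, SE 0.359, adjusted p = 5.38e-06). Abcb1b, a P-glycoprotein drug efflux pump, was 26.6 to 86.9 CPM at ZT4 and 1.19 to 10.4 CPM at ZT16 (-3.30, adjusted p = 0.00748). The other large falls were Odf3b (-3.31, with 1 to 3 reads a library at ZT16), the tyrosine kinase gene Ptk6 (-3.05), the copine gene Cpne4 (-2.87), the acid phosphatase gene Acpp (-2.69) and the secreted phospholipase gene Pla2g12a (-2.61). Of these 20 largest changes 12 were called under each of the 16 alternative settings. The exceptions on leaving out a library were Tmem178b (adjusted p up to 0.115), Nrg4 (up to 0.0639), Cyp1a1 (up to 0.145) and Ptgis (up to 0.0946), each lost without ZT4 replicate 3. Tmem178b was also lost without ZT4 replicates 1 or 2 or ZT16 replicate 1, Nrg4 without ZT4 replicate 1, Cyp1a1 without ZT4 replicate 1 or ZT16 replicate 3, and Ptgis without ZT4 replicate 2 or ZT16 replicate 2. Gadd45g (0.0705) and Pla2g12a (0.24) were lost without ZT4 replicate 3 and Abcb1b (0.0536) without ZT4 replicate 2. In a fit of only the groups compared Gadd45g had an adjusted p of 0.0563 and Sult2a6 of 0.0525.

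**Figure D1:**
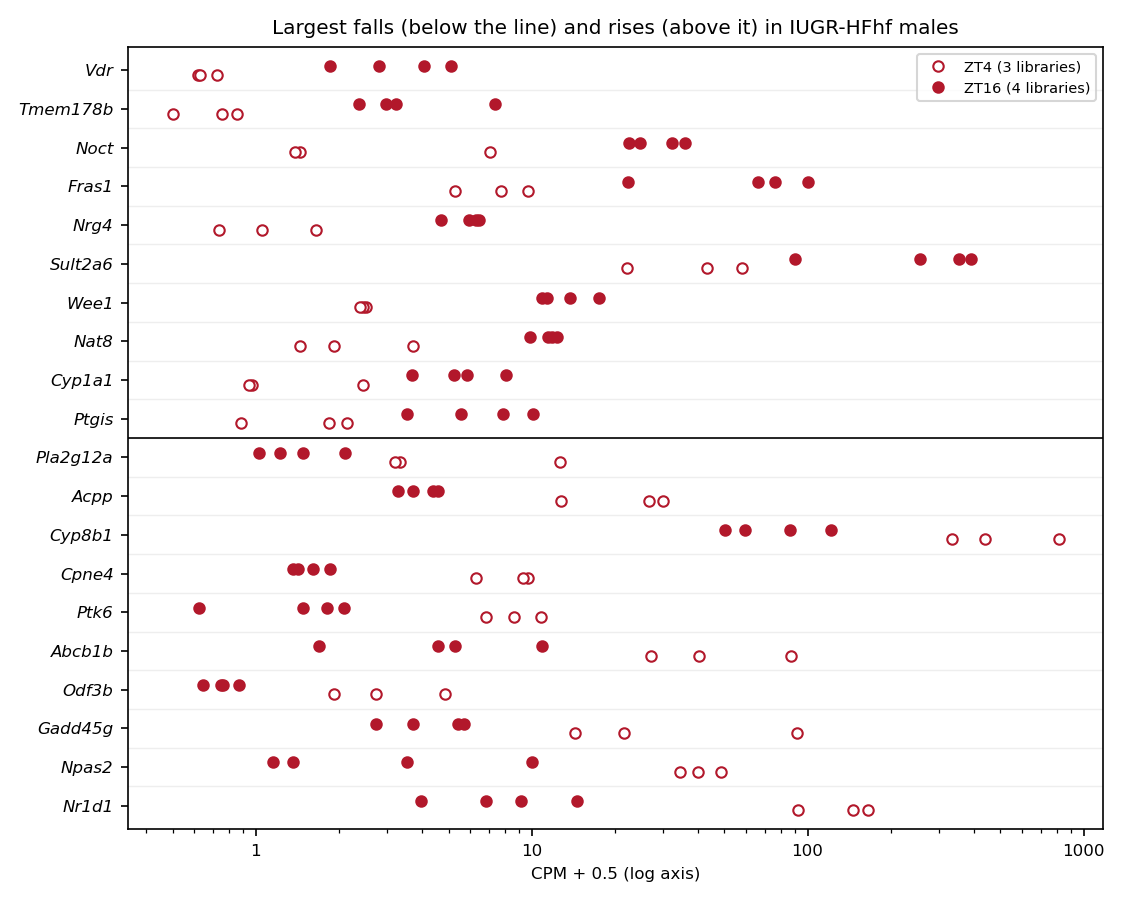
CPM plus 0.5 on a log axis for the 10 largest falls and the 10 largest rises between ZT4 (open points, 3 libraries) and ZT16 (filled points, 4 libraries) in IUGR-HFhf males, 1 point a library. The times do not overlap in any of these genes, which their choice required, and the spread within a time differs from gene to gene, from Wee1 (1.89 to 2.01 CPM at ZT4) to Gadd45g (13.9 to 91.2 CPM at ZT4).

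Of the 26 clock genes listed 21 were tested, and 5 of them passed: Cry1, Per2 and Usp2 rose and Nr1d1 and Npas2 fell. That is 14.3% of the list higher and 9.52% lower, beside 5.78% and 5.03% of all genes, with a list median of -0.11. The largest of these changes was in Nr1d1, the gene of the repressor REV-ERB alpha. It stood at 91.7, 146 and 165 CPM at ZT4 and at 6.32, 3.46, 14.1 and 8.67 CPM at ZT16 (log2 fold change -4.04, SE 0.545, adjusted p = 6.96e-06). Nr1d1 and Npas2 were among the largest falls, whose choice required that the times not overlap. Nr1d2, the gene of REV-ERB beta, was 71.4, 86.1 and 91.6 CPM at ZT4 and 72.4, 24.6, 74.3 and 53.2 CPM at ZT16 (-0.57, SE 0.321, adjusted p = 0.261), and its ranges overlapped.

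Among the activators only Npas2 passed. It was 47.9, 34.1 and 39.5 CPM at ZT4 and 0.659, 9.52, 0.866 and 3.04 CPM at ZT16 (log2 fold change -3.51, SE 0.631, adjusted p = 0.000543). The ZT16 libraries differed widely among themselves, with replicate 2 highest. Arntl, which encodes the shared partner BMAL1, was 38.9, 20.7 and 26.4 CPM at ZT4 and 16.6, 29.8, 16.6 and 19.9 CPM at ZT16 (-0.47, SE 0.538, adjusted p = 0.623). ZT16 replicate 2, the highest of its time in Npas2, was also the highest in Arntl, above 2 of the 3 ZT4 libraries. Clock was 98.5 to 114 CPM and 92.4 to 109 CPM (-0.10, adjusted p = 0.702), and the paralog Arntl2 was at most 2.46 CPM in any library (-0.34, adjusted p = 0.802).

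The repressors Per2 and Cry1 rose. Per2 went from 21.5, 39.6 and 31.1 CPM at ZT4 to 157, 123, 150 and 125 CPM at ZT16 (log2 fold change 2.18, SE 0.415, adjusted p = 0.000783). Cry1 went from 5.43, 6.97 and 3.34 CPM to 26.1, 28, 20.4 and 23.4 CPM (2.23, SE 0.298, adjusted p = 5.38e-06). In both genes the lowest ZT16 library was well above the highest ZT4 library, and both calls held under all 16 settings. The other repressors did not pass. Per1 was 13.2, 57 and 27.5 CPM at ZT4 and 25.2, 26.8, 47.3 and 40.5 CPM at ZT16 (0.11, SE 0.492), and Per3 was 12.3, 30.2 and 19.7 CPM against 39.1, 15.8, 41.6 and 25.7 CPM (0.56, SE 0.583). In both, ZT4 replicate 1 was the lowest and replicate 2 the highest of its time. Cry2 had 0.47 (adjusted p = 0.0964), Bhlhe40, which encodes the repressor DEC1, had 0.83 (adjusted p = 0.0719), and Ciart had -0.88 (adjusted p = 0.586) at no more than 2.07 CPM.

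The D-box factors bind a shared element in output genes, DBP and TEF as activators and NFIL3 (E4BP4) as repressor. None of their genes passed. Dbp was 24.9, 76.8 and 77.7 CPM at ZT4 and 29.9, 12.0, 44.2 and 28.3 CPM at ZT16 (log2 fold change -1.06, SE 0.791, adjusted p = 0.411). ZT4 replicate 1 lay among the ZT16 libraries, so the ranges overlapped. Tef was 26.2, 64.6 and 54.5 CPM against 80.7, 58.4, 79.5 and 75.3 CPM (0.60, adjusted p = 0.255), and Nfil3 was 43.5 to 51.9 CPM against 20.8 to 46.1 CPM (-0.46, adjusted p = 0.179). Among the enzymes that modify clock proteins, the ubiquitin protease gene Usp2 rose, from 3.19, 20.8 and 10.4 CPM to 33.5, 32.8, 38.7 and 37.3 CPM (1.65, SE 0.512, adjusted p = 0.0312). Its ZT4 libraries spread widely while its ZT16 libraries were nearly equal. The Usp2 call was lost in a fit of only the groups compared (adjusted p = 0.112), and without ZT4 replicate 1 (adjusted p = 0.167), ZT4 replicate 3 (0.117), ZT16 replicate 1 (0.052), ZT16 replicate 3 (0.0583) or ZT16 replicate 4 (0.0529). The kinase genes Csnk1d (-0.06) and Csnk1e (-0.29) and the ubiquitin ligase gene Btrc (-0.11) did not pass.

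**Figure D2:**
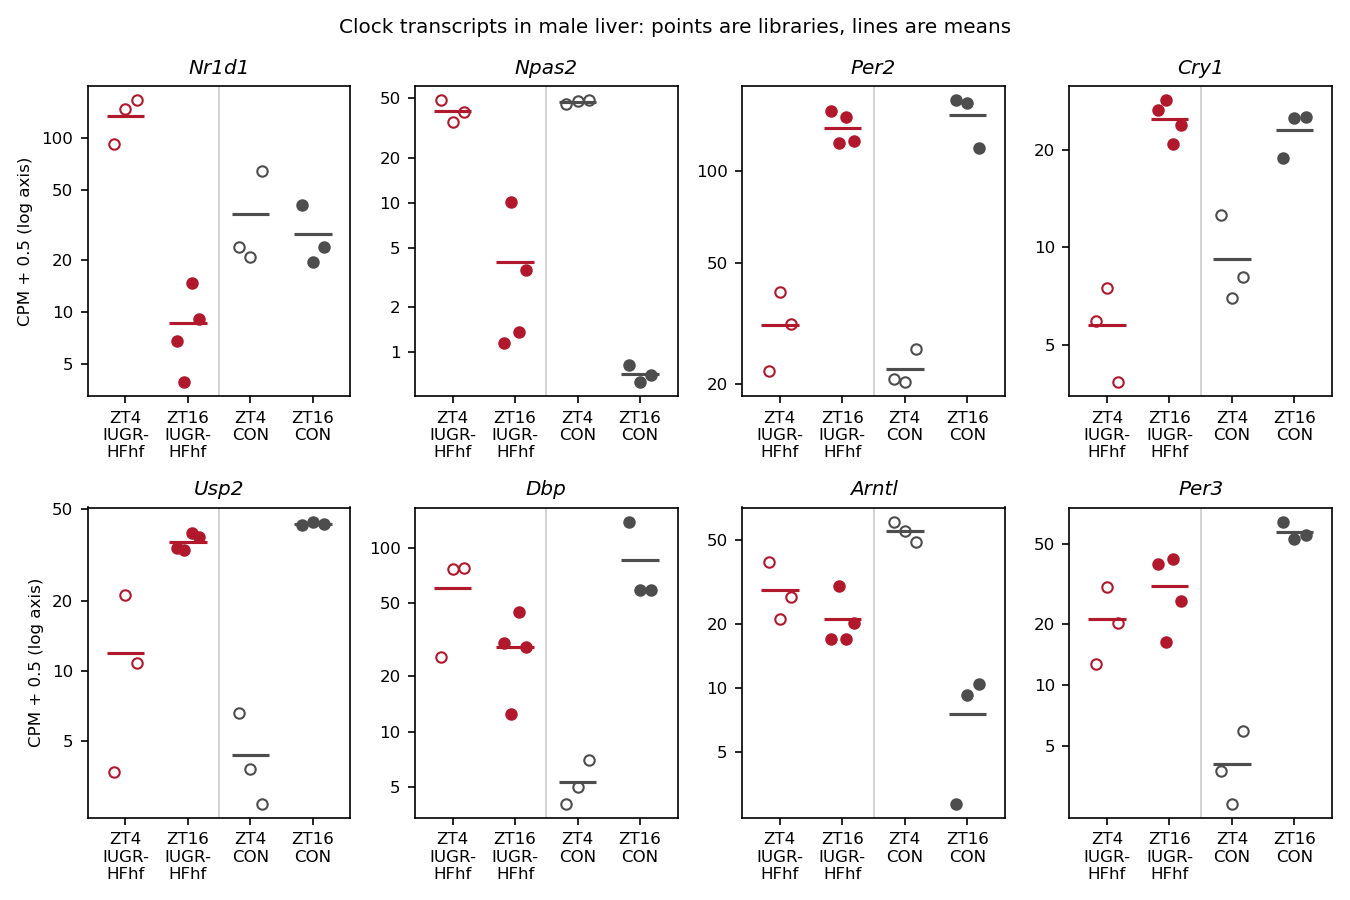
CPM plus 0.5 on a log axis for 8 clock genes at ZT4 (open points) and ZT16 (filled points) in IUGR-HFhf males (red, 3 and 4 libraries) and CON males (grey, 3 and 3 libraries), with 1 point a library and a line at each mean. Nr1d1 falls in IUGR-HFhf males, from 91.7 to 165 CPM down to 3.46 to 14.1 CPM, and overlaps between the times in CON males, while Dbp, Arntl and Per3 overlap between the times in IUGR-HFhf males and are apart in CON males.

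To show the regulatory sequence next to the clock genes that moved most, the 250 bases before the annotated start are printed for the 2 largest falls and the 2 largest rises of the list that have an entry in the RefSeq promoter table (build GRCr8, while the counts were made on rn6). Cry1 has none. Sequences run 5′ to 3′ in the direction of the gene, and capitals mark matches, on either strand, to an E-box (CACGTG), an E-box-like element (CACGTT), a D-box (TTATGTAA or TTACGTAA), a core of the ROR element that REV-ERB proteins also bind (TAGGTCA or TGGGTCA) or a cAMP response element (TGACGTCA). The regions are chr10:84231813-84232062 on the minus strand for Nr1d1, chr9:48959315-48959564 on the plus strand for Npas2, chr9:99496994-99497243 on the minus strand for Per2 and chr8:53310620-53310869 on the plus strand for Usp2.
Nr1d1: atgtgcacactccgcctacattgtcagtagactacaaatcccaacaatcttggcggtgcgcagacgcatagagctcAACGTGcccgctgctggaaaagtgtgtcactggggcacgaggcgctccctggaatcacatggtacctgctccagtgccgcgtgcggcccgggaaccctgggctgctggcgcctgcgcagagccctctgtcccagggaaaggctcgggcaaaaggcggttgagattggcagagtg
Npas2: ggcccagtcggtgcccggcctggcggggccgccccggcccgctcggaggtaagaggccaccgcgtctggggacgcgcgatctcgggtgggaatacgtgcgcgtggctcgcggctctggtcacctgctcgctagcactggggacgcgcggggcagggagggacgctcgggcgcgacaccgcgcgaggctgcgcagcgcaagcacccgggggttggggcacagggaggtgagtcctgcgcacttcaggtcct
Per2: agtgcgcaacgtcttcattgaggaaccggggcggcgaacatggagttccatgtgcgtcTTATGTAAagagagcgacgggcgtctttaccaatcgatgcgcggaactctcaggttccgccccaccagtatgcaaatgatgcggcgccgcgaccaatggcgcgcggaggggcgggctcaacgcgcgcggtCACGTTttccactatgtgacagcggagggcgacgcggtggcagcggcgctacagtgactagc
Usp2: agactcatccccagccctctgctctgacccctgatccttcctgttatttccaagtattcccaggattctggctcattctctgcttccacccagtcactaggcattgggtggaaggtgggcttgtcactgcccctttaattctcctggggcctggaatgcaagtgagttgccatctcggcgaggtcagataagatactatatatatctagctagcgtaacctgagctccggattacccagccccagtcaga
Nr1d1 holds an E-box-like element at position -174, counted from the start, and Per2 holds one at -62 and a D-box at -192. The windows of Npas2 and Usp2 hold none of these letters. Of the 17 tested clock genes with an entry 3 hold an E-box (Ciart, Tef and Bhlhe40), 3 an E-box-like element (Nr1d1, Per2 and Cry2), 1 a D-box (Per2) and 1 a ROR element core (Arntl, at -16). Ciart holds its E-box 3 times, at -93, -35 and -21. Over all 33465 promoters of the table the shares with a match in the same window are 5.59% for the E-box, 4.07% for the E-box-like element, 0.932% for the D-box, 5.62% for the ROR element core and 1.59% for the cAMP response element. A match is a description of these letters only.

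The same contrast in CON males asks how the clock differed between the times in animals on chow, and the difference of these changes was tested in the same fit. In CON males the test called 9 rises and 4 falls among the 21. Dbp, 24.9 to 77.7 CPM at ZT4 and 12.0 to 44.2 CPM at ZT16 in IUGR-HFhf males, was 3.56, 4.49 and 6.47 CPM at ZT4 and 139, 58.4 and 58.5 CPM at ZT16 in CON males (log2 fold change 4.12, SE 1.02, adjusted p = 0.00988). The difference of the changes, IUGR-HFhf minus CON, was -5.19 (SE 1.28, adjusted p = 0.0993). For Nr1d1 CON males had 23.2, 20.3 and 64.5 CPM at ZT4 and 40.8, 18.8 and 23.1 CPM at ZT16 (-0.40, adjusted p = 0.783), and the difference was -3.64 (SE 0.766, adjusted p = 0.0689). At ZT4 the IUGR-HFhf libraries were thus above the CON libraries in both genes, and at ZT16 below them. Per3 was 2.11 to 5.43 CPM at ZT4 and 52 to 63.8 CPM at ZT16 in CON males (3.97), with a difference of -3.40 (SE 0.932, adjusted p = 0.128). Nr1d2 had 1.17 in CON males and a difference of -1.73 (SE 0.474, adjusted p = 0.126).

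None of the 21 clock genes therefore passed for the difference from CON males in the fit of all 56 libraries, while 12 had an unadjusted p under 0.05, which 11.6% of all genes had. The adjusted p varied with the libraries and the tool used. In the 41 libraries that leave out the IUGR-RC groups (restricted dams, chow after birth) it was 0.0158 for Dbp, 0.0161 for Nr1d1, 0.0334 for Per3 and 0.041 for Nr1d2. In the fit of the groups compared alone it was 0.0325, 0.0737, 0.0418 and 0.136, and with DESeq2 0.0106, 0.00549, 0.0424 and 0.0476. The size for Dbp ran from -5.17 to -5.21 over the alternatives in scaling, filter and choice of libraries. With 1 library left out it ran from -4.65 to -5.56. In limma voom with sample quality weights Dbp had -4.89 (adjusted p = 0.0282). With 1 library left out, Nr1d1 passed without CON ZT4 replicate 3 (adjusted p = 0.0227), without IUGR-HFhf ZT4 replicate 1 (0.0311) and without IUGR-HFhf ZT16 replicate 3 (0.0396). Without any other single library Nr1d1 did not pass (up to 0.188). Dbp (0.0597 to 0.256), Per3 (0.0765 to 0.33) and Nr1d2 (0.097 to 0.278) passed in none of these fits. The changes that CON males had in Arntl, from 48.6 to 60.6 CPM at ZT4 down to 2.36 to 9.95 CPM at ZT16 (-2.91), and in Npas2, from 45.2 to 47.7 CPM down to 0.132 to 0.315 CPM (-7.72), were larger in size than in IUGR-HFhf males, with differences of 2.44 (SE 0.830, adjusted p = 0.237) and 4.21 (SE 1.49, adjusted p = 0.263).

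The same contrast was available in HFhf males, which differ from IUGR-HFhf males both in lacking the restriction and in the dams' diet during pregnancy, and in females of the IUGR-HFhf group. Nr1d1 fell in both, with log2 fold changes of -5.75 (SE 0.613) in HFhf males and -2.56 (SE 0.482) in females, and Cry1 and Per2 rose in both, with 2.29 and 1.54 in HFhf males and 2.14 and 2.68 in females. Npas2 fell in the females (-4.01) and was -1.28 (adjusted p = 0.22) in HFhf males. Dbp had -2.75 (adjusted p = 0.0433) in HFhf males, where it was 60.2 to 115 CPM at ZT4 and 11.0 to 18 CPM at ZT16, and 0.14 (adjusted p = 0.933) in the females, whose ranges of 7.83 to 102 CPM and 26 to 85.2 CPM overlapped. The differences from IUGR-HFhf males did not pass for any clock gene. For Nr1d1 the difference was 1.71 (SE 0.817, adjusted p = 0.56) against HFhf males and -1.48 (SE 0.703, adjusted p = 1.0) against the females, and for Dbp 1.68 (SE 1.14) and -1.20 (SE 1.07).

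**Figure D3:**
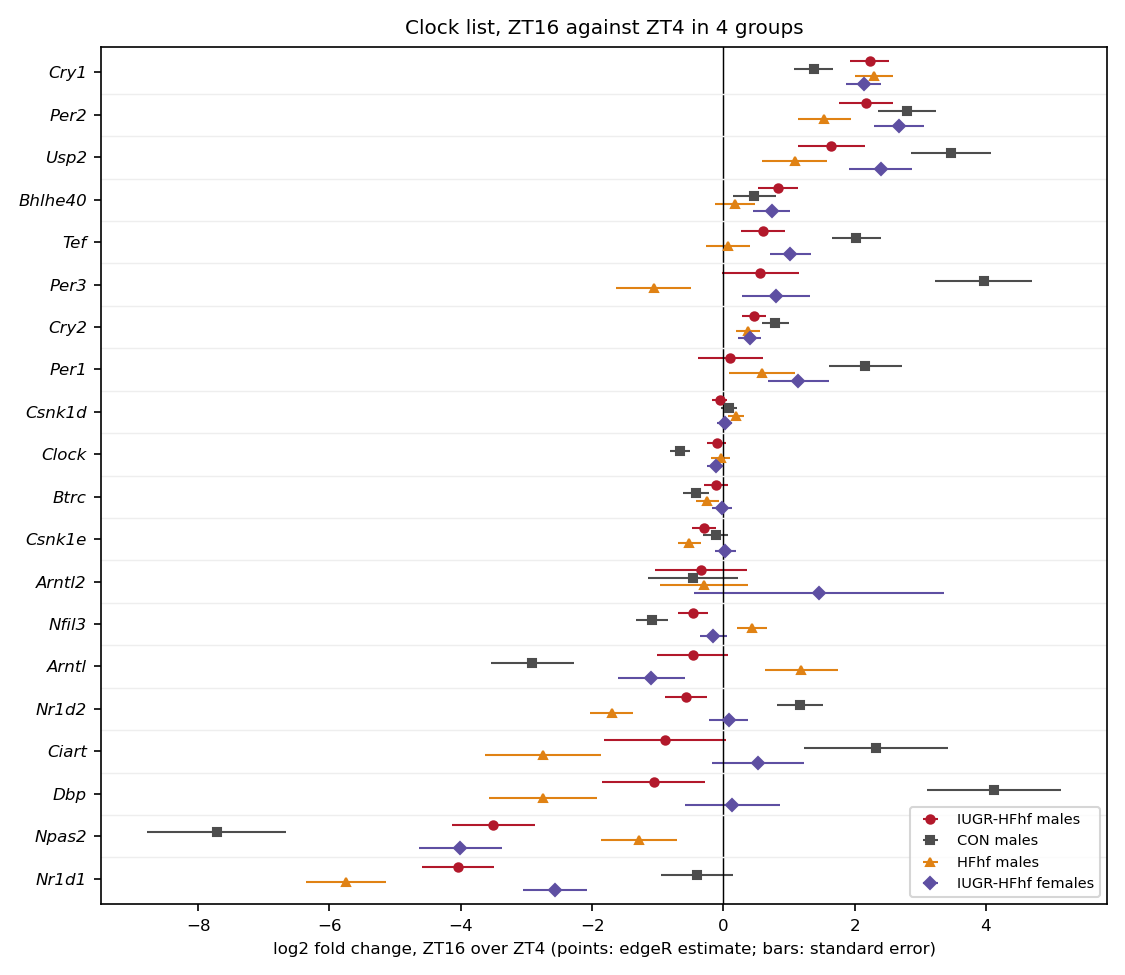
Log2 fold change of ZT16 over ZT4 for 20 of the 21 tested clock genes in IUGR-HFhf males (red circles), CON males (grey squares), HFhf males (orange triangles) and IUGR-HFhf females (purple diamonds), with bars of 1 standard error. Cry1 and Per2 lie to the right of 0 in each group, and Dbp runs from -2.75 in HFhf males through -1.06 in IUGR-HFhf males and 0.14 in the females to 4.12 in CON males.

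Outside the clock, the list with the largest share of rises was mitochondrial oxidative phosphorylation, although 21 of its members did not pass. It holds subunits of the respiratory complexes and of ATP synthase, which are encoded in the nucleus. Of its 46 tested members 25 rose (54.3%, beside 5.78% of all genes) and 0 fell, here and under each of the 16 alternative settings, with a median log2 fold change of 0.40 and single values from -0.27 to 0.95. Complex I gave 11 of its 20 members and complexes II to V 14 of their 26. Ndufa8, a complex I subunit, was 34.6, 35 and 27.2 CPM at ZT4 and 51.2, 52.1, 48.5 and 45.4 CPM at ZT16 (0.61, SE 0.118, adjusted p = 0.000696). Sdhd, a membrane anchor of succinate dehydrogenase, was 92.2, 102 and 88.8 CPM against 141, 140, 135 and 149 CPM (0.58, SE 0.131, adjusted p = 0.00295). In both genes the libraries of a time were close together and the times were apart. The largest rise of the list, chosen after its values were seen, was Cox7b, of cytochrome c oxidase (0.95), at 43.3 to 50.4 CPM and 78.8 to 104 CPM. In CON males 0 of the 46 rose and 1 fell (median 0.10), in HFhf males 14 rose (median 0.34) and in IUGR-HFhf females 6 rose (median 0.25). The difference from CON males did not pass for any member. The number that rose was 15 without ZT4 replicate 1, 6 without ZT4 replicate 3 and 15 without ZT16 replicate 2, and 20 to 24 without any other library. The summed level of 8 hepatocyte markers was 176000 to 186000 CPM at ZT4 and 192000 to 219000 CPM at ZT16, without overlap. None of the 8 was called (median log2 fold change 0.13). Their most abundant member was Alb, at a mean of 127000 CPM. Of all genes tested 14% lay higher at ZT16 without overlap. The part of this sum in the oxidative phosphorylation result was not tested.

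Chaperone genes formed the other list with a large share of rises. Heat shock factor HSF1 switches on cytosolic and mitochondrial chaperones when proteins unfold, and body temperature, which is higher in the active phase, drives it in a daily cycle. Of 19 tested HSF1 targets 10 rose and 0 fell (median 0.66). Fkbp4, a co-chaperone of HSP90, was 158, 164 and 112 CPM at ZT4 and 265, 256, 249 and 252 CPM at ZT16 (log2 fold change 0.82, SE 0.148, adjusted p = 0.000405). Hspd1, the mitochondrial chaperonin HSP60, was 80.8, 85 and 63.1 CPM against 115, 131, 115 and 104 CPM (0.61, SE 0.129, adjusted p = 0.00192). ZT4 replicate 3 was the lowest library in both. Cirbp, an RNA-binding protein induced by mild cold, fell from 15.8 to 19.1 CPM to 8.56 to 13 CPM (-0.69, adjusted p = 0.022). The other of the 2 cold-inducible genes tested had a positive change and was not called (median of both -0.26). Over the 21 members 10 rose (47.6%) and 1 fell (4.76%), beside 5.78% and 5.03% of all genes. In CON males 2 rose and 1 fell, in HFhf males 3 rose and 0 fell and in IUGR-HFhf females 9 rose and 1 fell, and no difference from CON males passed. Without ZT4 replicate 3 the number that rose was 2, and without any other single library it was 7 to 9. The Cirbp call was lost without ZT4 replicate 1 (adjusted p = 0.0565), ZT4 replicate 3 (0.105) or ZT16 replicate 1 (0.0853).

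**Figure D4:**
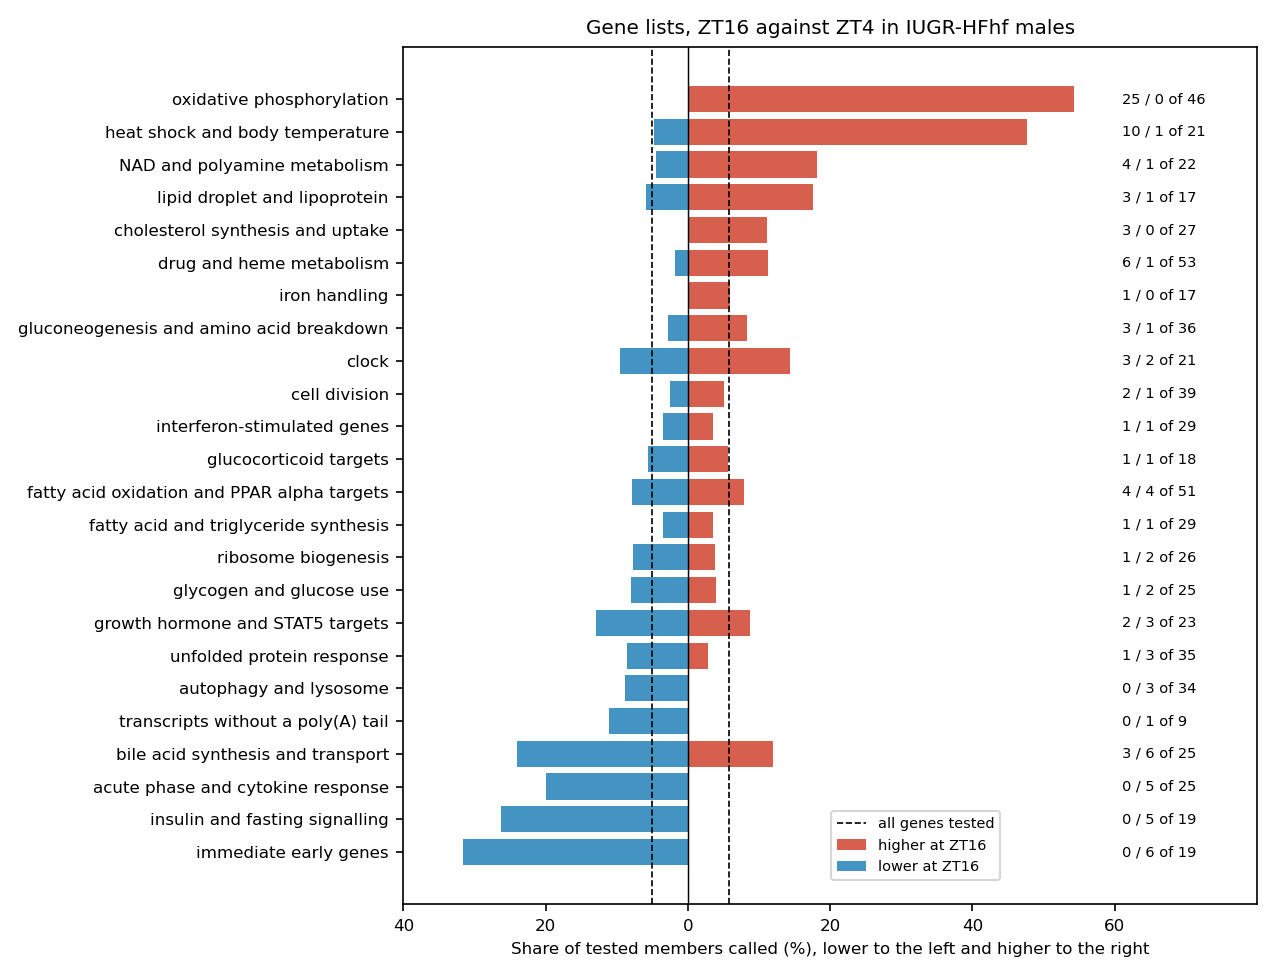
Share of the tested members of 24 gene lists that were called lower (blue, to the left) or higher (red, to the right) at ZT16 in IUGR-HFhf males, with the number higher, lower and tested at the right. Dashed lines mark the shares of all genes tested, 5.03% lower and 5.78% higher, and oxidative phosphorylation (54.3% higher) and heat shock (47.6% higher) extend farthest to the right.

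Bile acid genes changed in both directions, with 3 of 25 higher (12.0%) and 6 lower (24%), beside 5.78% and 5.03% of all genes. Among the synthesis enzymes Cyp8b1, described above, fell. Akr1d1, the steroid reductase of the pathway, rose from 1630, 1480 and 1250 CPM to 2580, 2450, 2520 and 2430 CPM (log2 fold change 0.78, SE 0.212, adjusted p = 0.0131). Its ZT16 libraries were nearly equal and all above ZT4. Of the transporters Slco1a1, which takes up bile acids and other anions, rose from 244 to 307 CPM to 439 to 460 CPM (0.67, adjusted p = 0.0139). Abcb4, which moves phosphatidylcholine into bile, fell from 94.6, 102 and 137 CPM to 60.2, 64.4, 61.4 and 65.0 CPM (-0.83, SE 0.195, adjusted p = 0.00473). The further rise and falls, named after their values were seen, were the oxysterol hydroxylase Cyp39a1 (0.48), the canalicular pumps Abcc2 (-0.72) and Abcb11 (-0.42) and the enzymes Hsd3b7 (-1.32) and Amacr (-0.77). Cyp8b1 remained called under all 16 settings. Without ZT4 replicate 3 the list had 1 higher and 2 lower, and the calls of Akr1d1 (adjusted p = 0.0899) and Abcb4 (0.0656) were lost. Without ZT4 replicate 2 the list had 1 higher and 5 lower, with Slco1a1 lost (0.0853), and without ZT4 replicate 1 or ZT16 replicate 4 it had 3 lower.

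Of 27 genes of cholesterol synthesis and uptake 3 rose (11.1%) and 0 fell, beside 5.78% and 5.03% of all genes, with a median of 0.46. Hsd17b7, a reductase of cholesterol synthesis, was 1.53 to 2.56 CPM against 3.71 to 6.59 CPM (1.20, adjusted p = 0.0375), a call that was lost in 7 of 16 settings (adjusted p up to 0.149), among them without any 1 of the ZT4 libraries or without ZT16 replicate 1 or 3. The thiolase Acat2, named after its values were seen, rose too (1.32). Only 1 of the 27 was higher without ZT4 replicate 2, ZT4 replicate 3, ZT16 replicate 1 or ZT16 replicate 3. In fatty acid and triglyceride synthesis 1 of 29 rose and 1 fell (3.45% each, below the shares of all genes, median 0.35). Mid1ip1, which promotes polymerisation of acetyl-CoA carboxylase, rose from 78.3 to 127 CPM to 198 to 269 CPM (1.10, adjusted p = 0.00391), and Nr1h2, the oxysterol receptor LXR beta, fell from 35 to 42.4 CPM to 25.6 to 29.9 CPM (-0.48, adjusted p = 0.00176). The Mid1ip1 call was lost without ZT4 replicate 3 (adjusted p = 0.0504).

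Fatty acid oxidation and PPAR alpha targets gave 4 rises and 4 falls among 51 genes (7.84% each, beside 5.78% and 5.03% of all genes). The rises were 0 without ZT4 replicate 3 and 2 without ZT4 replicate 2 or ZT16 replicate 2, and the falls were 0 without ZT4 replicate 2, 1 without ZT16 replicate 1 and 2 without ZT4 replicate 3. Aldh3a2, a fatty aldehyde dehydrogenase (0.41), and Abcd3, a peroxisomal fatty acid transporter (0.52), rose, and Rxra, the partner receptor of PPAR alpha (-0.51), fell. Aldh3a2 was lost without ZT4 replicate 1 (adjusted p = 0.0528) or 3 (0.0506), Abcd3 without ZT4 replicate 2 (0.0519) or 3 (0.065), and Rxra without ZT4 replicate 2 (0.155). In lipid droplets and lipoproteins 3 of 17 rose (17.6%) and 1 fell (5.88%), with 1 rise without ZT4 replicate 3. Mttp, which loads lipid onto apolipoprotein B, was 333, 318 and 298 CPM at ZT4 and 477, 515, 521 and 481 CPM at ZT16 (0.66, SE 0.116, adjusted p = 0.000318). Apoa5, an apolipoprotein that promotes plasma triglyceride clearance, was 669, 927 and 791 CPM against 462, 515, 552 and 392 CPM (-0.73, SE 0.142, adjusted p = 0.000793). The libraries of both times stood clearly apart in both genes, and both calls held under all settings. Hsd17b13, a lipid droplet enzyme that was also on the list of periportal markers, rose from 166 to 183 CPM to 303 to 346 CPM (0.89, adjusted p = 0.00943), a call lost without ZT4 replicate 3 (0.0527).

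In insulin and fasting signalling 5 of 19 genes fell (26.3%, beside 5.03% of all genes) and 0 rose, with a median of -0.17. Irs2, a docking protein of the insulin receptor whose transcript is raised by fasting, was 36.1, 38.1 and 44.3 CPM at ZT4 and 9.22, 9.65, 8.79 and 6.07 CPM at ZT16 (log2 fold change -2.22, SE 0.439, adjusted p = 0.0011). The 2 times lay far apart with little spread within either, and the call held under all settings. Trib1, a pseudokinase gene, fell from 31.7 to 53.3 CPM to 17.4 to 20.7 CPM (-1.17, adjusted p = 0.00888). The others were the pseudokinase Trib3 (-2.05) and, named after their values were seen, the FOXO factor Foxo3 (-0.85) and the stress sensor Sesn2 (-0.73). Trib3 was lost without ZT4 replicate 2 (adjusted p = 0.189), ZT16 replicate 1 (0.0604), ZT16 replicate 3 (0.0592) or ZT16 replicate 4 (0.0675). In CON and HFhf males 0 of the 19 passed and in IUGR-HFhf females 2 fell. Without ZT4 replicate 2 only 1 of the 19 fell and Trib1 was lost (adjusted p = 0.0581), and without ZT4 replicate 3 or ZT16 replicate 1, 3 or 4 the number was 3.

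Glucose genes changed in small numbers. In gluconeogenesis and amino acid breakdown 3 of 36 rose (8.33%, beside 5.78% of all genes) and 1 fell, with 1 rise without ZT4 replicate 1, ZT4 replicate 3, ZT16 replicate 2 or ZT16 replicate 4. Mpc2, a subunit of the mitochondrial pyruvate carrier, rose from 43.3 to 47.9 CPM to 69.4 to 81.1 CPM (0.72, adjusted p = 0.00225), and Pc, pyruvate carboxylase, fell from 901 to 1190 CPM to 664 to 820 CPM (-0.53, adjusted p = 0.00761). In glycogen and glucose use 5 of 25 genes rose and 2 fell in CON males. In IUGR-HFhf males 1 rose (4.0%) and 2 fell (8.0%), beside 5.78% and 5.03% of all genes. Gys2, liver glycogen synthase, was 66.7, 76.3 and 66.2 CPM at ZT4 and 115, 134, 113 and 116 CPM at ZT16 (0.78, SE 0.225, adjusted p = 0.0199), while Pygl, liver glycogen phosphorylase, was 517, 548 and 414 CPM against 335, 363, 378 and 353 CPM (-0.46, SE 0.135, adjusted p = 0.0211). Gys2 and Pygl thus moved in opposite directions without overlap between the times. Of all genes tested 14% lay higher and 12.6% lower at ZT16 without overlap. The regulator of glucokinase, Gckr, fell as well (-0.81, adjusted p = 0.0339). Mpc2 held under all settings. Pc (0.0703) and Pygl (0.12) were lost without ZT4 replicate 2, Gys2 without ZT4 replicate 1 (0.0674), ZT4 replicate 3 (0.0866) or ZT16 replicate 2 (0.053), Pygl also without ZT4 replicate 1 (0.0744) or ZT16 replicate 1 (0.0611), and Gckr without any single library other than ZT16 replicate 2 (up to 0.109).

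Among 18 glucocorticoid targets 1 rose and 1 fell (5.56% each, beside 5.78% and 5.03% of all genes). Klf9, which encodes a Krüppel-like factor, fell from 71.7, 145 and 116 CPM to 36, 49.4, 36.6 and 33.1 CPM (log2 fold change -1.52, SE 0.309, adjusted p = 0.00143), and Tsc22d3, which encodes the glucocorticoid-induced leucine zipper, rose from 28.7 to 44.7 CPM to 65.5 to 72.7 CPM (0.87, adjusted p = 0.0397). The Klf9 call held under all settings and the Tsc22d3 call in 8 of 16, being lost whenever 1 of the 7 libraries was left out. In the growth hormone and STAT5 list 2 of 23 rose and 3 fell. Both rises were sulfotransferases on its sublist of 6 genes known as female-biased in rat liver (median 1.44). Sult2a6 was 42.7, 21.6 and 57.3 CPM at ZT4 and 354, 254, 391 and 89.8 CPM at ZT16 (2.75, adjusted p = 0.000142), and Sult2a1 was 255, 58.0 and 373 CPM against 1040, 1050, 1220 and 523 CPM (2.07, adjusted p = 0.0144). ZT16 replicate 4 was the lowest of its time and ZT4 replicate 2 the lowest of all 7 in both. These are members of a multigene family, so that reads may be split or shared between its copies. Cyp2a1, also female-biased, fell from 208 to 286 CPM to 111 to 159 CPM (-0.80, adjusted p = 0.000925), and Stat5b, the transcription factor itself, from 44.9 to 46.1 CPM to 26.7 to 32.2 CPM (-0.65, adjusted p = 0.00872). The third fall, named after its values were seen, was Socs2, a feedback inhibitor of this pathway (-2.42). Without ZT4 replicate 2 the Sult2a1 call was lost (adjusted p = 0.0928), as it was in a fit of only the groups compared (0.126).

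Immediate early genes are switched on by growth signals and stress within minutes. Of 19 tested 6 fell (31.6%, beside 5.03% of all genes), 0 rose and 13 did not pass, with a median of -0.66. Ier3 was 14.5, 21.7 and 34.8 CPM at ZT4 and 8.56, 12.4, 12.1 and 11.9 CPM at ZT16 (log2 fold change -1.08, SE 0.296, adjusted p = 0.0151), and Jund, of the AP-1 family, was 104, 97.0 and 67.9 CPM against 51, 49.5, 51.9 and 74.4 CPM (-0.66, SE 0.192, adjusted p = 0.0207). In Jund the highest ZT16 library lay above the lowest ZT4 library. Ier3 was lost without ZT4 replicate 3 (adjusted p = 0.208) or ZT16 replicate 1 (0.0556), and Jund without ZT4 replicate 1 (0.111), ZT4 replicate 2 (0.0838), ZT16 replicate 1 (0.0627), ZT16 replicate 2 (0.0644) or ZT16 replicate 3 (0.0561). The others were Myc (-1.69), lost without any single library other than ZT4 replicate 1 (up to 0.165), and, named after their values were seen, Jun (-1.22), Nr4a3 (-2.05) and Egr1 (-1.86). This count varied with the libraries kept: it was 0 without ZT16 replicate 1, 1 without ZT4 replicate 3 or ZT16 replicate 2, 2 without ZT4 replicate 1, ZT4 replicate 2 or ZT16 replicate 3, and 3 without ZT16 replicate 4. In CON males 2 of the 19 fell (median -0.62).

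Of 25 genes of the acute phase and cytokine response 5 fell (20%, beside 5.03% of all genes) and 0 rose, with a median of -0.32. Socs3, the feedback inhibitor of cytokine signalling, was 3.30, 4.52 and 14.2 CPM at ZT4 and 1.71, 1.98, 2.10 and 1.01 CPM at ZT16 (log2 fold change -2.10, SE 0.496, adjusted p = 0.00497). ZT4 replicate 3 was far above the other 2, and without it the call was lost (adjusted p = 0.189). Lbp, which binds bacterial lipopolysaccharide, was 161, 146 and 213 CPM against 75.7, 94, 49 and 113 CPM (-1.07, SE 0.274, adjusted p = 0.0101), a call also lost without ZT4 replicate 3 (0.0784) and in a fit of only the groups compared (0.0563). The remaining falls, named after their values were seen, were Hpx (-0.43), Ccl2 (-2.39) and Lcn2 (-2.48). The number that fell was 0 without ZT4 replicate 3 and 2 without ZT4 replicate 1 or ZT16 replicate 1, 3 or 4. In the interferon list 1 of 29 rose, Bst2 (0.49), and 1 fell, Gbp5 (-1.13), which is 3.45% each, beside 5.78% and 5.03% of all genes. Both are induced by interferon, and both calls were lost without ZT4 replicate 1, ZT4 replicate 3 or ZT16 replicate 3, with adjusted p up to 0.181. Bst2 was also lost without ZT16 replicate 2 or 4 and Gbp5 without ZT16 replicate 1.

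**Figure D5:**
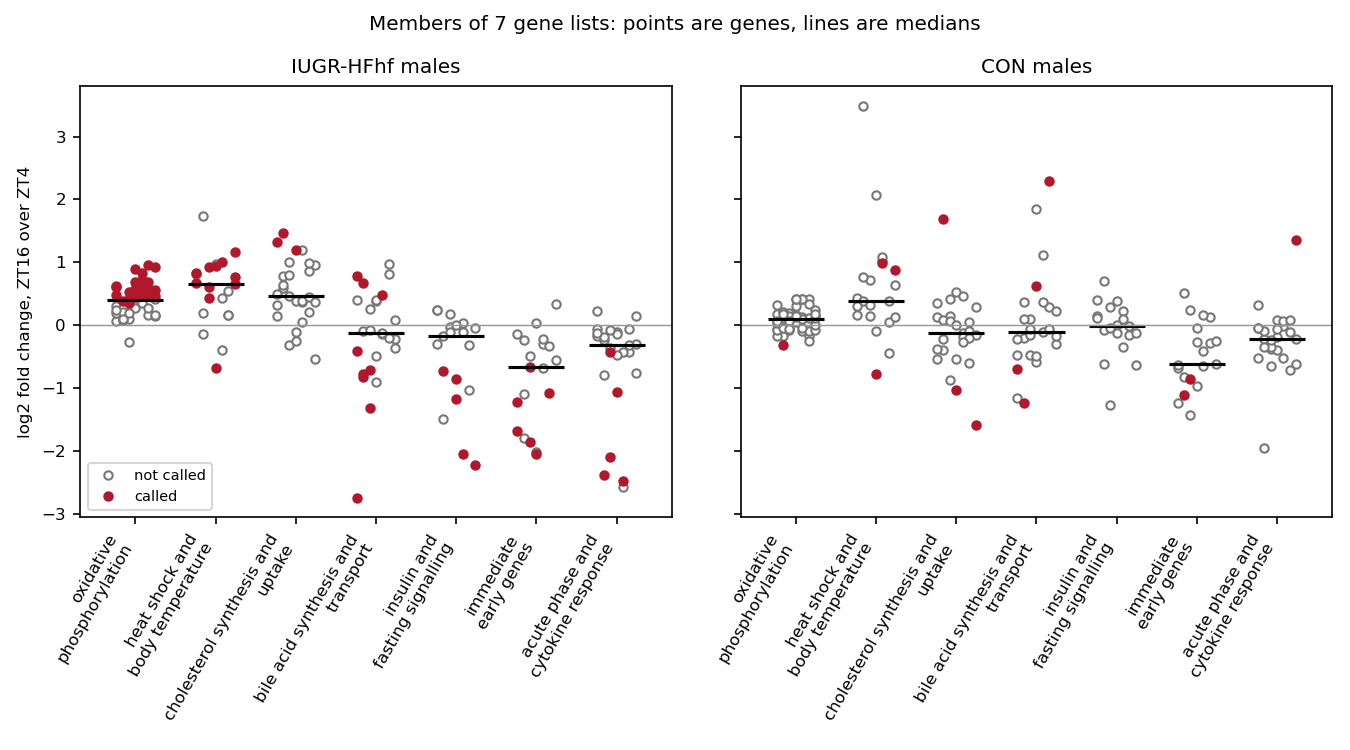
Log2 fold change of ZT16 over ZT4 for each tested member of 7 gene lists in IUGR-HFhf males (left) and CON males (right), with called genes in red, others open and a line at each median. In IUGR-HFhf males the medians run from 0.66 for heat shock and 0.40 for oxidative phosphorylation to -0.66 for immediate early genes, and in CON males the median of oxidative phosphorylation is 0.10.

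The remaining lists held smaller numbers, to be read beside 5.78% higher and 5.03% lower over all genes, and their counts of 1 or 2 often went to 0 or 1 without 1 library. In drug and heme metabolism 6 of 53 rose (11.3%) and 1 fell (1.89%), among them Ugt2b10, a glucuronosyltransferase (1.10, adjusted p = 0.000531, 32.7 to 55.1 CPM at ZT4 and 77.0 to 130 CPM at ZT16), and Nr1i2, which encodes the xenobiotic sensor PXR (0.71, adjusted p = 0.0115). The number that rose was 1 without ZT4 replicate 3 and 3 without ZT4 replicate 1. In NAD and polyamine metabolism 4 of 22 rose (18.2%) and 1 fell (4.55%), with 2 rises without ZT4 replicate 3. Nmrk1, nicotinamide riboside kinase, was 4.60, 4.78 and 4.90 CPM at ZT4 and 15.4, 14.3, 15.5 and 14.2 CPM at ZT16 (1.64, SE 0.328, adjusted p = 0.0011), with very little spread within a time. Qprt, which makes an NAD precursor from tryptophan, rose as well (0.74, adjusted p = 0.00145), and both calls held under all settings. Parp1, which consumes NAD, fell (-0.36, adjusted p = 0.0354). In autophagy and lysosome 0 of 34 rose and 3 fell (8.82%), or 1 without ZT4 replicate 3, including the lysosomal protease Ctsb, from 838 to 952 CPM to 537 to 595 CPM (-0.70, adjusted p = 0.000573). In the unfolded protein response 1 of 35 rose (2.86%) and 3 fell (8.57%), or 1 without ZT4 replicate 2, ZT16 replicate 3 or ZT16 replicate 4, with Xbp1, its transcription factor, going from 189, 238 and 223 CPM to 122, 133, 114 and 106 CPM (-0.87, adjusted p = 0.00903). Xbp1 and Ctsb held under all settings. Ribosome biogenesis had 1 rise and 2 falls among 26, cell division 2 rises and 1 fall among 39, and iron handling 1 rise, the transferrin receptor Tfrc (1, adjusted p = 0.0174), among 17. Nr1i2 was lost without ZT4 replicate 1 (adjusted p = 0.0931) or 3 (0.0516), Tfrc without ZT4 replicate 3 (0.144) or ZT16 replicate 4 (0.0532), and Parp1 without ZT4 replicate 1 (0.139), ZT4 replicate 2 (0.152), ZT16 replicate 1 (0.111) or ZT16 replicate 4 (0.0835). Of 9 transcripts without a poly(A) tail, a check on how the libraries were made, 1 fell, Hist2h4 (-1.03), a call lost without ZT4 replicate 2 (adjusted p = 0.228).

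Markers of other cells of the liver were measured to see whether its make-up moved with the time. None of the 8 hepatocyte and 8 pericentral markers passed. The summed level of 7 endothelial markers was 481 to 540 CPM at ZT4 and 422 to 470 CPM at ZT16, that of 6 cholangiocyte markers 52 to 56.6 CPM and 40.8 to 48.6 CPM, and that of 8 periportal markers 4190 to 4340 CPM and 3280 to 3890 CPM, each without overlap. With the hepatocyte sum 4 of the 15 marker sums did not overlap, and of all genes tested 14% lay higher and 12.6% lower at ZT16 without overlap. By the test, 1 of 7 endothelial (14.3%) and 1 of 6 cholangiocyte markers (16.7%) were lower and 1 of 8 periportal markers (12.5%) was higher. Of 10 stellate cell markers 1 was higher and 1 lower (10% each). Over all genes 5.78% were higher and 5.03% lower, and 1 member makes up each of these list shares. Among them were the endothelial receptor Stab2 (-0.49) and, in stellate cells, Lrat (0.62) and Pdgfrb (-0.80). Stab2 was lost without ZT4 replicate 1 or 3 or ZT16 replicate 1 or 2 (adjusted p up to 0.0899), Lrat without ZT4 replicate 2 or 3 or ZT16 replicate 1 or 4 (up to 0.0873), and Pdgfrb without any single library other than ZT4 replicate 2 (up to 0.194). Sums overlapped between the times for the macrophage (424 to 619 and 516 to 564 CPM), stellate (355 to 485 and 320 to 393 CPM) and red blood cell lists (68.6 to 109 and 92.0 to 203 CPM), although Slc4a1, a membrane protein of red cells, rose (0.97, adjusted p = 0.0342). That call was lost without ZT4 replicate 2 or 3 or ZT16 replicate 1, 2 or 4 (up to 0.155). Skeletal muscle markers summed to at most 2.02 CPM, with Acta1, Myh4 and Mb at 0 in all 7 libraries, and pancreatic acinar markers to at most 5.07 CPM, with Cpa1 and Clps at 0. The part of the endothelial, cholangiocyte and periportal sums in the lists above was not tested.

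Tests of the difference across all genes asked where the day-night change of IUGR-HFhf males departed from that of the other groups. Against CON males 0 genes (0.0%) changed more toward a rise and 2 (0.0181%) more toward a fall, of 11047, with 642 and 644 at an unadjusted p under 0.05. Both are named here. Sdr42e1, which encodes a short-chain dehydrogenase, fell in IUGR-HFhf males, from 68.5, 119 and 126 CPM to 49.5, 43.9, 50.2 and 37.4 CPM (log2 fold change -1.21, SE 0.169, adjusted p = 6.96e-06). In CON males it was 40.7, 44.9 and 46.9 CPM at ZT4 and 62.7, 55 and 40.4 CPM at ZT16 (0.25, adjusted p = 0.527), a difference of -1.46 (SE 0.251, adjusted p = 0.0058). It also fell in HFhf males (-1.17) and in IUGR-HFhf females (-0.71). Irx1, which encodes a homeobox factor, was 9.56, 15.4 and 11.0 CPM at ZT4 and 11.7, 11.5, 7.43 and 8.38 CPM at ZT16 in IUGR-HFhf males (-0.29, adjusted p = 0.441). In CON males it rose from 7.11, 7.92 and 9.05 CPM to 29.3, 20.5 and 15.3 CPM (1.42), a difference of -1.71 (SE 0.335, adjusted p = 0.0331).

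The Sdr42e1 difference was lost without IUGR-HFhf ZT4 replicate 3 (adjusted p = 0.0596) or CON ZT16 replicate 1 (0.0644). The Irx1 difference was lost without CON ZT4 replicate 1 (0.105), CON ZT4 replicate 2 (0.0996), CON ZT16 replicate 1 (0.122), CON ZT16 replicate 2 (0.0517), or IUGR-HFhf ZT4 replicate 2 (0.149), ZT4 replicate 3 (0.0596), ZT16 replicate 3 (0.0519) or ZT16 replicate 4 (0.0679). The number of genes that differed from CON males varied with the setting: it was 28 toward a rise and 30 toward a fall in the 41 libraries without IUGR-RC, 18 and 18 with DESeq2, and 52 and 39 with only the groups compared. Against HFhf males and against IUGR-HFhf females 0 genes passed in either direction (0.0%), with 429 and 509, and 281 and 225, at an unadjusted p under 0.05. DESeq2 gave 0 and 0 against HFhf males and 2 and 0 against the females, and limma voom gave 0 in each. The median log2 fold change of 9 skeletal muscle markers was 4.97 in HFhf males and -5.16 in the females, with 0 called. In the females 3 of 4 tested pancreatic acinar markers fell. The part of such tissue in these differences was not tested. Without the 4 libraries doubted in the whole series, which include a library of each of these groups, the counts stayed 0.

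Taken on their own, the other groups had fewer calls between the times. CON males had 269 genes higher (2.44%) and 322 lower (2.91%), HFhf males 269 higher (2.44%) and 220 lower (1.99%) and IUGR-HFhf females 466 higher (4.22%) and 412 lower (3.73%). CON males had fewer libraries than IUGR-HFhf males, HFhf males the same numbers and IUGR-HFhf females more. The counts were not tested against each other, so they do not rank the groups. Of the IUGR-HFhf male calls 95 higher (14.9% of them and 35.3% of the CON calls) and 109 lower (19.6% and 33.9%) were also called in CON males. With HFhf males the shared calls were 140 higher (21.9% and 52%) and 93 lower (16.7% and 42.3%), and with IUGR-HFhf females 218 higher (34.2% and 46.8%) and 176 lower (31.7% and 42.7%). No gene called in both was called in opposite directions in any of these 3 pairs of groups, which share no library.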

How the data were processed

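Ribosome-depleted, stranded RNA libraries of rat liver were sequenced, per the labels' protocols, although the labels' molecule field names polyA RNA. The authors deposited a table of read counts per gene symbol for all 56 libraries. The submitters' processing notes name FastQC, STAR, Subread, featureCounts, DESeq2 and the build rn6, without versions or settings. The authors' own tables of comparisons against CON were not used.

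From the deposited counts, 11047 of 17337 genes passed edgeR's filterByExpr. The table has 2487 genes with no read, 26 symbols turned into dates and 2 duplicated symbols. A quasi-likelihood model (edgeR 4.0.16, R 4.3.3, TMM scaling, robust) was fitted to all 56 libraries with 16 group means and 40 residual degrees of freedom. P-values were adjusted by Benjamini-Hochberg over all genes tested, with a threshold of 0.05. The SE of a log2 fold change is its size over the square root of F. CPM use TMM-scaled library sizes. The model was also run on counts simulated from its own estimates of the spread, with set changes added. Such counts meet the model's assumptions, so that run cannot test the calls made here. Groups follow the labelled sex, diet history and time. Replicate numbers follow deposit order and pair nothing. Alternatives used DESeq2 1.42.0, limma 3.58.1 (voom with sample quality weights), other scalings, no filter, other choices of libraries, and each library left out. Depth of 6.73 to 8.46 M counted reads (M, 1000000 reads) a library limits genes under about 1 CPM.

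Members and gene lists were chosen with earlier results of these data known. In 39 lists 799 of 830 entries matched a symbol in the table. A few genes that this rule would name are not reported here. The text otherwise names every tested clock gene, the 10 largest called rises and falls with a mean of at least 1 CPM and no overlap between the times, the 2 called members with the smallest p in each direction of every other list, and the 5 largest called differences between groups in each direction. Promoters come from RefSeq, build GRCr8.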

Additional observations from a re-analysis of the deposited data

Results flagged for a closer look

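At ZT16, where the 4 libraries allow the test, 1 library stood apart from the other 3 by Dixon's criterion in 6 of the 106 named genes, and chance alone gives about 1 in 20 groups. Replicate 1 was lowest in Nr1h2, at 25.6 CPM against 29.2 to 29.9 CPM, and in Ier3, at 8.56 CPM against 11.9 to 12.4 CPM. Replicate 2 was highest in Gys2, at 134 CPM against 113 to 116 CPM, and in the adipocyte hormone Lep, at 1.36 CPM against 0.0 to 0.124 CPM. Replicate 4 was highest in Jund, at 74.4 CPM against 49.5 to 51.9 CPM, and in Pdgfrb, at 21.0 CPM against 19 to 19.2 CPM.

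The change between the times differed between IUGR-HFhf and CON males, by a test of the difference itself (edgeR's quasi-likelihood test), for Irx1, by -1.71 (adjusted p = 0.0331), and for Sdr42e1, by -1.46 (adjusted p = 0.0058). Of 22 alternative settings 14 called the Irx1 difference (adjusted p up to 0.149) and 20 the Sdr42e1 difference (up to 0.0644). The change of Irx1 within IUGR-HFhf males was called in 0 of 16 settings.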

How the results depend on the processing

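No paired analysis was possible because the labels give no replicate numbers or pairing. The counts of genes higher and lower at ZT16 stayed within 1.5 times of 638 and 556 under both other scalings, no filter, DESeq2 and the 4 other choices of libraries, and were 1020 and 932 with limma voom. Leaving out 1 library gave 235 to 502 and 288 to 440. Without ZT4 replicate 3, 226 of the 638 and 270 of the 556 remained called. The counts of differences from CON males, 0 toward a rise and 2 toward a fall, were 18 and 18 with DESeq2, 94 and 82 with voom, 52 and 39 with only the groups compared, 28 and 30 in the 41 libraries without IUGR-RC, 9 and 14 without 4 libraries doubted in the whole series, and 17 and 13 in the 41 libraries with a term for low or high title numbers. Leaving out 1 library gave 0 to 6 and 0 to 10. From HFhf males 1 gene differed toward a rise with only the groups compared, and leaving out 1 library gave 0 to 1 in each direction. From IUGR-HFhf females 2 did with DESeq2, and leaving out 1 library gave 0 to 1 in each direction. Changes not called that turned sign were Cd79b (0.02, and -0.10 with voom, -0.38 to 0.27 without 1 library), Arntl2 (-0.95 to 0.0487), Per1 (-0.27 to 0.78), Ciart (-1.35 to 0.18), and the difference from CON males of Arntl2 (-0.70 with voom, -0.48 to 0.51). The cause was not tested. Of 80 named genes called, 32 were called under every setting.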
